A study of Mus musculus with 7 samples.

Results

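The platelet-derived growth factor (Pdgf) family was described in 7 mouse colon tumors through its 4 ligand genes, Pdgfa, Pdgfb, Pdgfc and Pdgfd, its 2 receptor genes, Pdgfra and Pdgfrb, and the receptor-like gene Pdgfrl. These 7 genes were found by Ensembl identifier among the 43346 genes of the count table, and the family was chosen by its members' fold changes between the graft groups, so that difference is given below as a description. The A and B chains are secreted as active dimers, whereas the C and D chains are released as latent dimers that a protease must cut. Pdgfra, the alpha receptor, binds the A, B and C chains, and Pdgfrb, the beta receptor, binds the B and D chains; both are tyrosine kinases that signal through phosphoinositide 3-kinase and phospholipase C gamma. In the gut, epithelium makes the A chain and the fibroblast-like cells beneath it carry Pdgfra, while endothelium makes the B chain and the pericytes around it carry Pdgfrb. Pdgfrl encodes a protein related to the outer, ligand-binding part of the receptors and has no kinase domain.

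The tumors came from lethally irradiated wild-type mice, C57BL6/J by the labels and a congenic CD45.1 strain by the study's methods, that received bone marrow (BM) carrying either a heterozygous Dnmt3a loss, Dnmt3a(+/-) BM (n = 4), or intact Dnmt3a, Dnmt3a(+/+) BM (n = 3). Donors of both groups carried the interferon-inducible Mx1-Cre and received poly(I:C), so the deletion lay in the transplanted blood cells, and the stroma and epithelium of the host were wild type in both groups. The sample labels give the recipients' age as 8 weeks, and the study's methods give a younger age. Colitis-associated cancer was induced in all mice with azoxymethane, a carcinogen injected at 10 mg/kg, and dextran sulfate sodium, which inflames the colon and was given at 3% in 3 cycles of 1 week with 2 weeks off. The sample codes begin with BMT18 or BMT8, read here as 2 transplantation experiments. BMT18 holds Dnmt3a(+/+) BM replicates 1 and 2 and Dnmt3a(+/-) BM replicates 1 and 2. BMT8 holds Dnmt3a(+/+) BM replicate 3 and Dnmt3a(+/-) BM replicates 3 and 4. Each tumor is from a separate animal, and polyadenylated RNA of the whole tumor was sequenced.

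Total counts ranged from 38472738 to 64314999 per tumor. Levels are in CPM, the counts of a gene scaled to a common library size with TMM factors, and in a bulk tumor fewer cells of a type and less RNA per cell cannot be told apart. Colon epithelium markers summed to between 10848 and 37696 CPM, so the labelled tissue was present in every tumor. The CPM of Dnmt3a itself was 22.5 ± 2.06 (SD, n = 3) with Dnmt3a(+/+) BM and 30.3 ± 8.94 (SD, n = 4) with Dnmt3a(+/-) BM, in whole tumors whose host cells keep both copies. A pair of tumors stood apart in their cell markers. Dnmt3a(+/-) BM replicate 2 had the highest mean log2 CPM of the fibroblast, endothelial and leukocyte marker lists, and Dnmt3a(+/+) BM replicate 3 had 43.0 CPM in all of smooth muscle markers, against 270 to 1223 CPM in the other tumors. Values without the tumor concerned are given beside the results that it moves most.

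The question put to the family was how its transcripts differed between tumors grown under the 2 grafts. Of the 7 genes, 6 had a higher fitted level with Dnmt3a(+/-) BM, against 50.2% of all 15810 genes tested, and 4 had a log2 fold change over 1, against 7.57% of all genes. Pdgfrl was the only member whose groups did not overlap, a pattern in the higher direction seen in 6.12% of all genes. A gene was called when its Benjamini-Hochberg adjusted P was under 0.05 and its log2 fold change over 1 in size. By edgeR's quasi-likelihood fit, 0 of 7 members were called, as were 0.0% of all genes. At an unadjusted P under 0.05 it held 2 members, Pdgfra and Pdgfrl, both in the higher direction, against 11.0% of all genes in either direction and 5.83% in that one. DESeq2 called 1 member, Pdgfrl, against 1.87% of the genes with an adjusted P, or 1.51% counting the higher direction. Since the family was chosen with this contrast known, its P values describe the fit and are no independent evidence. All 7 genes passed the low-count filter, and the smallest count of any of them in any tumor was 33.

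**Figure D1:**
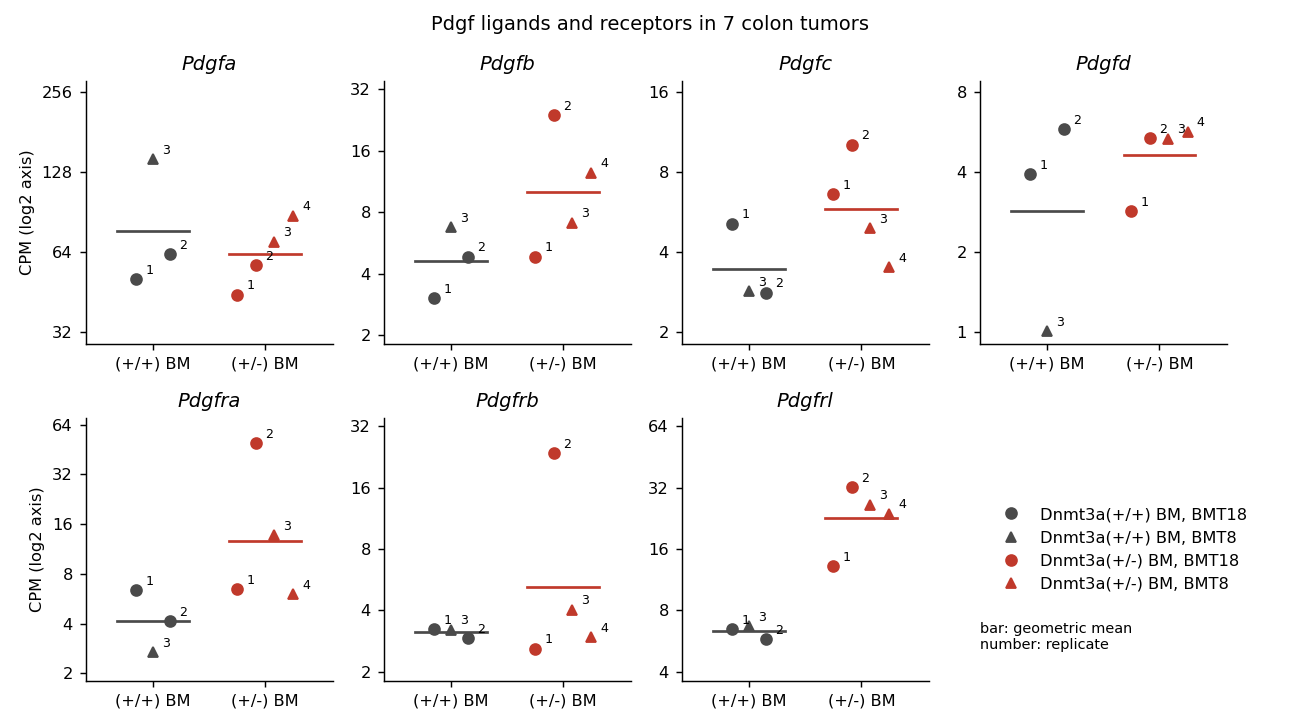
CPM of each of the 7 genes (log2 axis) by graft group, with 1 point per tumor, the replicate number beside it, circles for BMT18, triangles for BMT8 and a bar at the geometric mean. Only the Pdgfrl points separate, 5.78 to 6.70 CPM against 13.1 to 32.1 CPM, and Dnmt3a(+/-) BM replicate 2 is the highest tumor for Pdgfb, Pdgfc, Pdgfra, Pdgfrb and Pdgfrl.

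Among the ligands, Pdgfa encodes the A chain and spans positions 138976014 to 138997370 of chromosome 5 (GRCm38). Its CPM was 50.7, 62.7 and 143 in Dnmt3a(+/+) BM replicates 1 to 3 and 44.2, 57.2, 70.0 and 87.6 in Dnmt3a(+/-) BM replicates 1 to 4. The groups overlapped, and the highest value was that of Dnmt3a(+/+) BM replicate 3. The means were 85.4 ± 50.1 (SD, n = 3) and 64.8 ± 18.6 (SD, n = 4), a log2 fold change of -0.40 (standard error 0.39, edgeR adjusted P = 0.74), and the log2 fold change was 0.19 without Dnmt3a(+/+) BM replicate 3. An antisense gene, 6330403L08Rik, overlaps Pdgfa and had 194 to 468 counts against 1770 to 4667 for Pdgfa. The library kit keeps the strand, and the strand setting of the counting is not given in the sources used here.

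Pdgfb encodes the B chain, which blood vessels use to recruit pericytes, and lies on chromosome 15 from 79995874 to 80014977. Its CPM was 3.04, 4.84 and 6.73 in Dnmt3a(+/+) BM replicates 1 to 3 and 4.84, 24.0, 7.11 and 12.5 in Dnmt3a(+/-) BM replicates 1 to 4. The upper 3 of the Dnmt3a(+/-) BM tumors lay above every control, and replicate 1 lay within the control range. Means of 4.87 ± 1.85 (SD, n = 3) and 12.1 ± 8.54 (SD, n = 4) gave a log2 fold change of 1.31 (standard error 0.58, edgeR adjusted P = 0.46), or 0.77 without Dnmt3a(+/-) BM replicate 2. That tumor held 49.5% of the group's summed Pdgfb CPM. Within BMT18 the log2 ratio of the group means was 1.87, and within BMT8, with 1 control tumor, it was 0.54.

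Pdgfc and Pdgfd are the ligands secreted in latent form. Pdgfc, on chromosome 3 from 81036416 to 81214040, was at 5.10, 2.81 and 2.84 CPM in Dnmt3a(+/+) BM replicates 1 to 3 and at 6.61, 10.1, 4.92 and 3.51 CPM in Dnmt3a(+/-) BM replicates 1 to 4. The groups overlapped, with Dnmt3a(+/-) BM replicates 1 and 2 above all controls, and the log2 fold change was 0.81 (standard error 0.44, edgeR adjusted P = 0.53), or 0.51 without replicate 2. Pdgfd, on chromosome 9 from 6168584 to 6378850, was at 3.92, 5.81 and 1.01 CPM in the controls and at 2.84, 5.36, 5.34 and 5.68 CPM in the Dnmt3a(+/-) BM tumors. The low value of 1.01 CPM belonged to Dnmt3a(+/+) BM replicate 3. The log2 fold change of Pdgfd was 0.42 (standard error 0.57, edgeR adjusted P = 0.83) with all tumors and -0.02 without that replicate. Its within-experiment log2 ratios had opposite signs, -0.25 in BMT18 and 2.45 in BMT8.

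Among the receptors, Pdgfra lies on chromosome 5 from 75152292 to 75198215. Its CPM was 6.39, 4.14 and 2.69 in Dnmt3a(+/+) BM replicates 1 to 3 and 6.46, 49.2, 13.7 and 6.03 in Dnmt3a(+/-) BM replicates 1 to 4. Replicates 1 and 4 lay close to the upper end of the control range, while replicate 2 alone held 65.3% of the group's sum. The means were 4.41 ± 1.87 (SD, n = 3) and 18.85 ± 20.6 (SD, n = 4), with a log2 fold change of 2.10 (standard error 0.82, edgeR adjusted P = 0.43). Without Dnmt3a(+/-) BM replicate 2 the log2 fold change was 1.02. DESeq2 gave Pdgfra an adjusted P of 0.096, and 0.019 with the experiment as a covariate. The within-experiment log2 ratios of the means were 2.40 in BMT18 and 1.87 in BMT8.

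Pdgfrb lies on chromosome 18 from 61045150 to 61085061. Its CPM was 3.22, 2.92 and 3.21 in Dnmt3a(+/+) BM replicates 1 to 3 and 2.60, 23.7, 4.02 and 2.95 in Dnmt3a(+/-) BM replicates 1 to 4. Outside replicate 2, which held 71.2% of the group's sum, the 6 other tumors spanned only 2.60 to 4.02 CPM and the groups overlapped. The log2 fold change was 1.41 (standard error 0.83, edgeR adjusted P = 0.56) with all tumors and 0.06 (standard error 0.31) without replicate 2. Its highest tumor exceeded Dixon's 95% limit for 4 values, which replicate 2 did as the highest tumor in 3.62% of all genes. For Pdgfrb, DESeq2 without a covariate gave no P value with all 7 tumors, and with the experiment as a covariate the adjusted P was 0.34. Its log2 ratio of the means was 2.10 within BMT18, which holds that tumor, and 0.12 within BMT8.

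Pdgfrl lies on chromosome 8 from 40926212 to 40990785. Its CPM was 6.45, 5.78 and 6.70 in Dnmt3a(+/+) BM replicates 1 to 3 and 13.1, 32.1, 26.3 and 23.8 in Dnmt3a(+/-) BM replicates 1 to 4, from 219 to 370 counts in the controls and 526 to 1577 counts in the others. Every Dnmt3a(+/-) BM tumor was above every control. The means were 6.31 ± 0.48 (SD, n = 3) and 23.8 ± 7.95 (SD, n = 4), a 3.78-fold difference in the fit. The log2 fold change was 1.92 (standard error 0.32), which ranked 7 of 15810 genes by unadjusted P (0.00035). The edgeR adjusted P was 0.36, which was also the lowest of any gene. Without Dnmt3a(+/-) BM replicate 2 the log2 fold change of Pdgfrl was 1.77. The log2 ratio of the means was 1.89 within BMT18 and 1.90 within BMT8, which has 1 control tumor. In DESeq2 the log2 fold change was 1.93 (adjusted P = 2.3e-05).

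**Figure D2:**
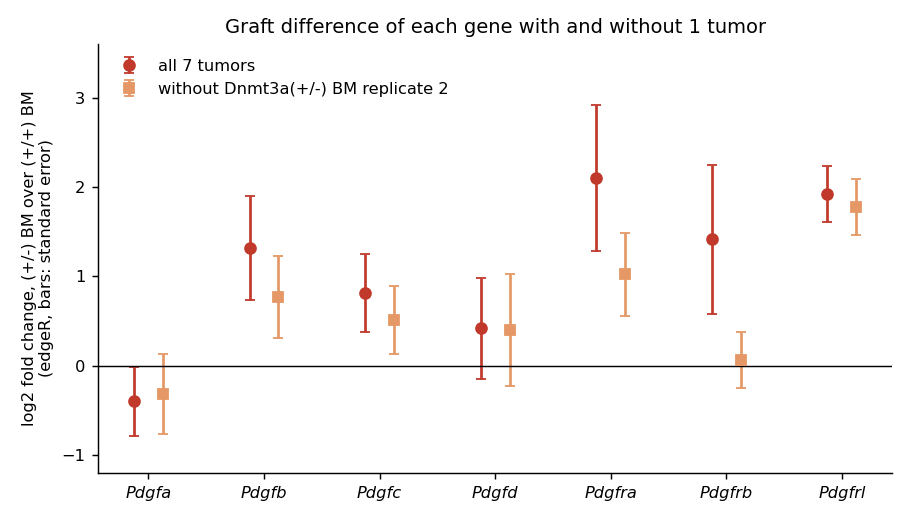
Log2 fold change of each gene between Dnmt3a(+/-) BM and Dnmt3a(+/+) BM tumors from edgeR, with bars of 1 standard error, for all 7 tumors (circles) and without Dnmt3a(+/-) BM replicate 2 (squares). Leaving out that tumor takes Pdgfrb from 1.41 to 0.06 and Pdgfra from 2.10 to 1.02, and leaves Pdgfrl at 1.77.

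Dnmt3a(+/-) BM replicate 2 was the highest of the 7 tumors for 5 of 7 members, against 24.7% of all genes tested. The median log2 fold change of the members was 1.31 with all tumors and 0.51 without replicate 2, where all genes had medians of 0.003 and 0.03. On library sizes without TMM scaling the median of all genes moved to 0.21, and 6 members kept a higher and Pdgfa a lower fitted level.

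The receptor-like gene was compared with the true receptors inside each tumor, as log2 ratios of CPM, on which the library scaling acts only through the prior count. Pdgfrl over Pdgfrb was nearly constant in the controls, at 0.99, 0.97 and 1.05 in Dnmt3a(+/+) BM replicates 1 to 3. It was 2.32, 0.44, 2.697 and 3.00 in Dnmt3a(+/-) BM replicates 1 to 4. Thus 3 of the 4 tumors lay above all controls and replicate 2, in which Pdgfrb was high, lay below them. The mean ratio differed by 1.11 between the groups, by 1.67 without replicate 2, by 0.40 within BMT18 and by 1.80 within BMT8. Pdgfrl over Pdgfra was 0.01, 0.48 and 1.30 in the controls and 1.02, -0.61, 0.94 and 1.97 in the Dnmt3a(+/-) BM tumors. These ratios overlapped, with a mean difference of 0.23, or 0.71 without replicate 2. The ratio of the receptors to each other, Pdgfra over Pdgfrb, was -0.25 to 0.98 in the controls and 1.02 to 1.75 in the Dnmt3a(+/-) BM tumors, without overlap and with Dnmt3a(+/+) BM replicate 1 close to the lowest of the other group.

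**Figure D3:**
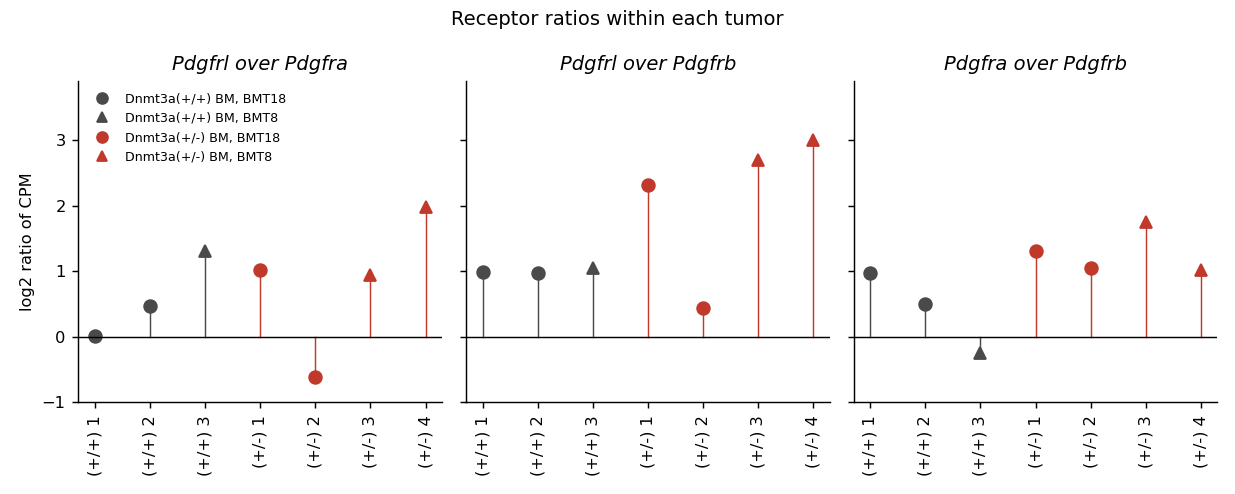
Log2 ratio of CPM within each tumor for Pdgfrl over Pdgfra, Pdgfrl over Pdgfrb and Pdgfra over Pdgfrb, with each stem drawn from a ratio of 1 (log2 of 0). Pdgfrl over Pdgfrb is 0.97 to 1.05 in the 3 Dnmt3a(+/+) BM tumors and 2.32 to 3.00 in the Dnmt3a(+/-) BM tumors other than replicate 2, which is at 0.44.

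Levels of different genes were compared as CPM per kilobase of exon. The choice of the family did not use the order of levels, but the pooled levels carry the graft difference that it used. Pdgfa was the most abundant member, with a geometric mean of 22.0 CPM per kilobase over the 7 tumors. It was followed by Pdgfrl at 4.21, Pdgfb at 1.75, Pdgfd at 1.21, Pdgfc at 0.92, Pdgfra at 0.79 and Pdgfrb at 0.77 CPM per kilobase. An exact sign-flip permutation test over the 7 tumors, two-sided, was run on 8 pairs, the 6 neighbours in this order and Pdgfrl against each receptor. The neighbours and their direction were set by the order in these same tumors, so their P values describe it. Pdgfa exceeded Pdgfrl by 2.38 and Pdgfrl exceeded Pdgfb by 1.27 on the log2 scale, each in 7 of 7 tumors (exact permutation P = 0.016, the smallest possible, adjusted P = 0.031 over the 8 pairs). Pdgfrl exceeded Pdgfra by 2.41 ± 0.86 and Pdgfrb by 2.45 ± 1.01 (SD, n = 7) on the log2 scale, again in 7 of 7 tumors and with the same exact P values. On exon length, the differences between the neighbours from Pdgfb down to Pdgfrb were within their spread between tumors (adjusted exact permutation P = 0.42 to 0.88). The order pools the grafts, including the graft difference of Pdgfrl. Its mean in log2 CPM per kilobase was 1.02 in the controls and 2.86 with Dnmt3a(+/-) BM, above Pdgfb at 0.17 and 1.28. The place of Pdgfra differed between the grafts. In the controls it was the lowest member, with a mean of -1.26 against -0.79 for Pdgfrb in log2 CPM per kilobase, and with Dnmt3a(+/-) BM it was at 0.35, above Pdgfc at 0.21 and Pdgfrb at -0.06, a difference that was not tested. Its place also depended on the length used: with the mean length of the coding transcripts, Pdgfra exceeded Pdgfc by 0.88 on the log2 scale (adjusted exact permutation P = 0.021). With that length Pdgfrl stayed above Pdgfb in geometric mean, by less, but not in 7 of 7 tumors. In Dnmt3a(+/+) BM replicate 3 the CPM was 6.73 for Pdgfb and 6.70 for Pdgfrl, and the coding length of Pdgfb is the shorter. The exact P given above for Pdgfrl over Pdgfb therefore holds for exon length only.

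**Figure D4:**
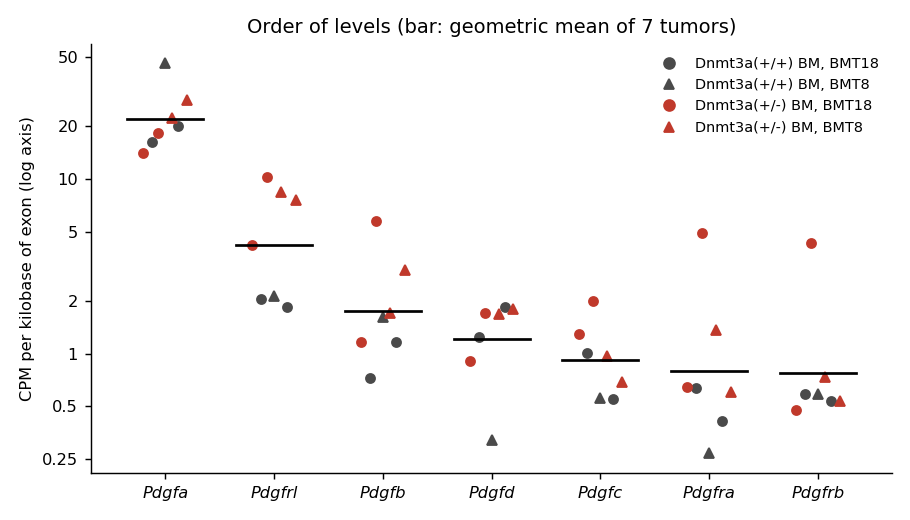
CPM per kilobase of exon (log axis) of the 7 genes in order of their geometric mean (bar), 1 point per tumor, coloured by graft and shaped by experiment. Pdgfa (22.0) and Pdgfrl (4.21) stand above the 5 other genes, whose means run from 0.77 to 1.75.

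The transplantation experiment was a contrast that the choice of the family did not use. Pdgfa separated the experiments: it was 44.2 to 62.7 CPM in the 4 BMT18 tumors and 70.0 to 143 CPM in the 3 BMT8 tumors, without overlap, a pattern seen in 7.69% of all genes in this direction. With the graft as a covariate the log2 difference of BMT8 over BMT18 was 0.92 (standard error 0.20). It missed the threshold in edgeR (adjusted P = 0.19), and DESeq2 gave an adjusted P of 0.019 at a log2 difference of 0.91, under the fold threshold. edgeR called 0 of 7 members, against 0.00633% of all genes, and held 1 member at an unadjusted P under 0.05, against 19.4%. DESeq2 called 0 of 7, against 3.02% of the genes with an adjusted P, and at any fold held Pdgfa, against 5.26%. Pdgfra and Pdgfrb had log2 differences of -1.29 (standard error 0.69) and -1.08 (standard error 0.79), which came to -0.13 and 0.28 without Dnmt3a(+/-) BM replicate 2. For Pdgfrl the difference was 0.14 (standard error 0.31). With each tumor left out in turn the Pdgfa difference ranged from 0.61 to 1.12 on the log2 scale.

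How the members varied with the cells that carry them was described over the 7 tumors, with Pearson's r and Spearman's rho of log2 CPM. The points share library, depth, cell content and graft group, 91 such relations were computed, and none was tested. The closest match of a ligand to a cell type was Pdgfb with the 12 endothelial markers, r = 0.97 and rho = 1.00, so both put the tumors in the same order. Without Dnmt3a(+/-) BM replicate 2, r was 0.94, and for deviations from the group means it was 0.97. The summed endothelial CPM was 23.3 to 52.4 in the controls and 41.2 to 213 in the Dnmt3a(+/-) BM tumors, and the log2 ratio of Pdgfb to the endothelial markers was 1.03 to 1.66 in the controls against 0.81 to 0.95. Pecam1, which joins endothelial cells, averaged 5.95 ± 1.93 CPM (SD, n = 3) and 17.6 ± 9.57 CPM (SD, n = 4). Cdh5, the endothelial cadherin, averaged 3.07 ± 1.59 CPM (SD, n = 3) and 18.5 ± 20.9 CPM (SD, n = 4), a log2 fold change of 2.59 that came to 1.44 without Dnmt3a(+/-) BM replicate 2. All 12 endothelial markers had a positive log2 fold change, with a median of 1.67, or 1.202 without Dnmt3a(+/-) BM replicate 2. Of them edgeR called 0 and DESeq2 4, against 1.87% of all genes with a DESeq2 adjusted P. The part of vessel content in the Pdgfb values was not tested.

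For the receptors, Pdgfra went with the 8 markers of subepithelial telocytes and villus-tip fibroblasts, the Pdgfra-rich cells under the epithelium, at r = 0.96 and rho = 0.96, and at r = 0.94 without Dnmt3a(+/-) BM replicate 2. Its r with the general fibroblast markers, 12 of 14 of which were tested and used, was 0.85 and came to 0.30 without that tumor. Bmp7, a secreted growth factor of the telocyte list, averaged 10.1 ± 4.02 CPM (SD, n = 3) in the controls and 28.8 ± 12.2 CPM (SD, n = 4) with Dnmt3a(+/-) BM. It was the 1 gene of these 8 whose groups did not overlap, against 12.4% of all genes in either direction. The telocyte list was not uniform, since F3, its most abundant gene, had a log2 fold change of -0.81. Pdgfrb had r = 0.91 with the fibroblast markers and 0.52 with the pericyte markers, which came to 0.10 and -0.16 without Dnmt3a(+/-) BM replicate 2. The mean log2 CPM of the fibroblast markers was 5.42 in that tumor and 3.52 to 4.24 in the other 6, and the part of fibroblast content in its Pdgfrb value was not tested. In sum the fibroblast markers came to 277 to 506 CPM in the controls and 484 to 1346 CPM with Dnmt3a(+/-) BM, and the pericyte markers to 36.5 to 85.6 CPM and 56.1 to 129.9 CPM. No marker of any list was at 0 in all tumors. Of the tested markers, 10 of 12 fibroblast, 7 of 8 telocyte and 9 of 9 pericyte genes had a positive log2 fold change, with medians of 0.59, 0.93 and 0.54, or 0.17, 0.51 and 0.57 without Dnmt3a(+/-) BM replicate 2. Of these genes edgeR called 0, and DESeq2 called Vim of the fibroblast list and Bmp7 of the telocyte list. DESeq2 called 1.87% of all genes with an adjusted P. Pdgfra and Pdgfrb had r = 0.89 with each other and 0.50 without that tumor.

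Pdgfrl had r = 0.62 with the general fibroblast markers, or 0.37 without Dnmt3a(+/-) BM replicate 2. Measured against those markers, its log2 ratio was -0.98 or lower in the controls and -0.41 to 0.69 in the Dnmt3a(+/-) BM tumors, without overlap and with a mean difference of 1.35. The part of fibroblast content in the Pdgfrl values was not tested. The r of Pdgfrl was 0.87 with the telocyte markers and 0.86 with the endothelial markers, 0.82 and 0.81 without replicate 2. For deviations from the group means these came to 0.61 and 0.76. The mean log2 CPM of the telocyte markers was 1.58 to 2.24 in the controls and 2.38 to 3.29 with Dnmt3a(+/-) BM. These ranges did not overlap, and the part of telocyte content in the Pdgfrl values was not tested. The highest r, 0.92, was with the enteric glia and neuron list, of which only 3 of 8 genes passed the low-count filter. Its mean log2 CPM, 0.56 to 0.99 in the controls and 1.07 to 2.36 with Dnmt3a(+/-) BM, did not overlap either. For deviations from the group means that r was 0.75. Among the members, Pdgfrl had r = 0.78 with Pdgfra, 0.57 with Pdgfrb and 0.78 with Pdgfb.

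**Figure D5:**
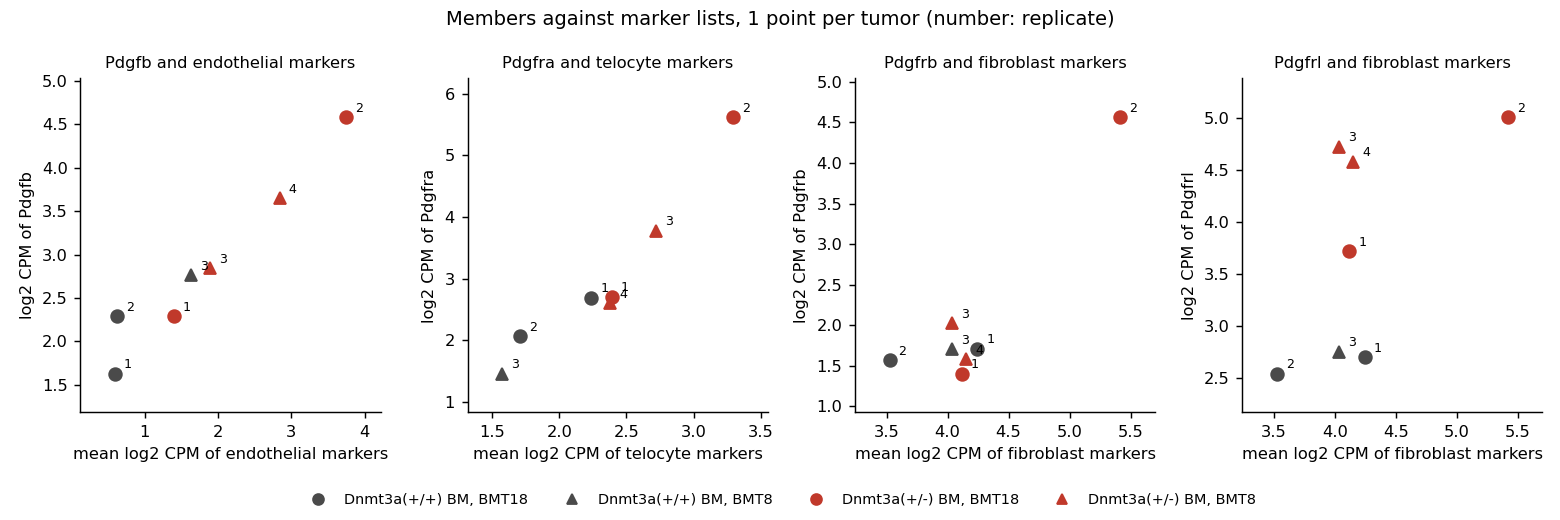
Log2 CPM of Pdgfb, Pdgfra, Pdgfrb and Pdgfrl against the mean log2 CPM of a marker list, 1 point per tumor with its replicate number. Pdgfb follows the endothelial markers (r = 0.97) and Pdgfra the telocyte markers (r = 0.96), and Pdgfrb departs from a narrow range in 1 tumor. In mean log2 CPM of fibroblast markers, Dnmt3a(+/-) BM replicates 1, 3 and 4 lie at 4.03 to 4.15, the controls at 3.52 to 4.24 and replicate 2 at 5.42. In summed CPM of these markers, replicates 1, 3 and 4 had 484, 688 and 732, against 277 to 506 in the controls. The part of fibroblast content in the Pdgfrl values was not tested. The telocyte markers, at 1.58 to 2.24 in the controls and 2.38 to 3.29 with Dnmt3a(+/-) BM, do not overlap between the groups. Nor do the enteric glia and neuron markers, which are not drawn.

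Among the other ligands, Pdgfc had r = 0.86 with Pdgfra, 0.67 without Dnmt3a(+/-) BM replicate 2, and r = 0.87 with the pericyte and -0.91 with the colon epithelium markers. Pdgfd had r = 0.81 but rho = 0.21 with the smooth muscle markers, a relation carried by Dnmt3a(+/+) BM replicate 3, which was lowest in both. The remaining lists had median log2 fold changes of 0.66 for leukocyte (0.08 without Dnmt3a(+/-) BM replicate 2), 0.46 for crypt-base stromal, 0.05 for smooth muscle, 0.33 for platelet, 1.15 for enteric glia and neuron and -0.57 for colon epithelium markers. Of their genes edgeR called 0 and DESeq2 called 1, against 1.87% of all genes with a DESeq2 adjusted P. That gene was Ret of the enteric list, which is named here after its values were seen. Pdgfa had r = 0.46 with the colon epithelium markers and -0.81 with the smooth muscle markers, the latter with rho = -0.36.

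Since Pdgfra and Pdgfc, a receptor and a ligand of it, varied together, the bases ahead of their start sites are shown, from RefSeq on GRCm38.p6. The table used holds 4 of the 7 members. Each sequence is the 250 bases before the start, on the plus strand, 5′ to 3′, at chr5:75152001-75152250 for Pdgfra and chr3:81036166-81036415 for Pdgfc. Capitals mark a CArG box, the site class of serum response factor.
Pdgfra: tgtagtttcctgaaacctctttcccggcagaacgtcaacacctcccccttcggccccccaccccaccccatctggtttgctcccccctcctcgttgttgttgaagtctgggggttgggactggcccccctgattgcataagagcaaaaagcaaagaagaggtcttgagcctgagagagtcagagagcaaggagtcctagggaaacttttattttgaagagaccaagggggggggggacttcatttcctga
Pdgfc: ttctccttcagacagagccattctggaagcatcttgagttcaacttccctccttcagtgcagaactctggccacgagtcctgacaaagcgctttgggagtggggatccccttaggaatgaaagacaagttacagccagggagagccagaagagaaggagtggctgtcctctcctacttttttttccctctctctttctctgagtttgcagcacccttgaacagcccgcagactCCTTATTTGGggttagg
The GC box core (GGGCGG), the TATA box (TATAAA), the CCAAT box (its name is its sequence) and the CArG box were searched on both strands, and no match overlapped another in these windows. The Pdgfc window held 1 CArG box, from 17 to 8 bases before the start, and the Pdgfra window held no match to any of the 4. The CArG box is present in 1.47% of 32851 upstream windows of the same length, the GC box core in 32.7%, the TATA box in 12.4% and the CCAAT box in 33.9%. GC content was 54.4% for Pdgfra and 50.8% for Pdgfc, near the median of 52.4% over all windows, whereas the windows of Pdgfa, with a GC box core in each, had 66.4% and 72.4%. A match is a description of these letters.

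The genes most like each receptor across the 7 tumors were named by correlation of log2 CPM over 15809 tested genes. For Pdgfra they were Grb14, Bcl2l11, Msrb3, Rcan2 and Armh4, with r from 0.988 to 0.996, and 384 genes, or 2.43%, had r over 0.9, against 139 without Dnmt3a(+/-) BM replicate 2. For Pdgfrb they were Ces1g, Srpx2, Bgn, Armcx2 and Gdf15. With all tumors 223 genes had r over 0.9 with Pdgfrb, and 12 did without Dnmt3a(+/-) BM replicate 2. For Pdgfrl they were Tubb4a (r = 0.996), Cul7, Lef1, Gabra4 and Cd244a. Taken over both grafts, these r values include the graft difference by which the family was chosen. Tubb4a, a beta-tubulin, averaged 4.59 CPM in the controls and 25.1 CPM with Dnmt3a(+/-) BM, and Lef1, a partner of beta-catenin, averaged 3.53 and 17.7 CPM. For Pdgfrl the number with r over 0.9 was 327 with all tumors and 378 without Dnmt3a(+/-) BM replicate 2.

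The other genes of the pathway were counted in 5 lists, in which edgeR called 0 genes between the grafts. Of 9 proteases and co-receptors, 5 had a positive and 4 a negative log2 fold change, with a median of 0.12 against 0.003 over all genes, 0 at an unadjusted P under 0.05 in the higher and 1 in the lower direction. Plat, the tissue plasminogen activator that cuts latent Pdgf-C, was at 122, 44.9 and 43.7 CPM in Dnmt3a(+/+) BM replicates 1 to 3 and 113, 841, 111 and 103 CPM in Dnmt3a(+/-) BM replicates 1 to 4. Its groups overlapped, and its log2 fold change of 2.06 came to 0.67 without replicate 2. Plau, the urokinase that cuts latent Pdgf-D, was also highest in replicate 2, at 115 CPM against 9.73 to 27.9 CPM in the 6 other tumors. Nrp1, a co-receptor, averaged 13.0 ± 8.22 CPM (SD, n = 3) and 14.2 ± 4.00 CPM (SD, n = 4).

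Of 31 adaptors and effectors, 12 had a positive and 19 a negative log2 fold change, with a median of -0.03, or 0.18 on library size alone, and 4 had groups that did not overlap, against 12.4% of all genes. Fyn, a Src-family kinase, averaged 3.65 ± 0.55 CPM (SD, n = 3) in the controls and 8.92 ± 3.65 CPM (SD, n = 4) with Dnmt3a(+/-) BM. It was the 1 gene of the list that DESeq2 called (adjusted P = 0.031, edgeR adjusted P = 0.37), against 1.87% of all genes. Plcg1, the phospholipase C gamma that docks on both receptors, averaged 29.8 ± 2.35 and 49.1 ± 13.3 CPM, a log2 fold change of 0.72. Neither edgeR nor DESeq2 called Plcg1.

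The 11 negative regulators had a median log2 fold change of 0.09, with 6 positive and 5 negative and 0 called by either tool. The 16 immediate-early growth factor response genes, with 10 positive and 6 negative, had a median of 0.58 that came to 0.13 without Dnmt3a(+/-) BM replicate 2 and 0.10 without replicate 4. Myc was the only one whose groups did not overlap, against 12.4% of all genes in either direction. It was 53.1 to 53.9 CPM in the controls and 64.8 to 89.7 CPM in the other group (log2 fold change 0.47, edgeR adjusted P = 0.38). Of the 7 other class III receptor kinases and ligands, 6 were tested, with a median of 0.56, or 0.20 without replicate 2. Csf1, the macrophage growth factor, was 6.35 to 7.59 CPM in the controls and 8.08 to 35.4 CPM with Dnmt3a(+/-) BM, and Kit, the stem cell factor receptor, averaged 7.89 ± 4.30 and 9.93 ± 10.4 CPM. Between the experiments edgeR called 0 genes of the 5 lists. There DESeq2 called 1 of the proteases and co-receptors, 1 of the adaptors, 1 of the negative regulators, 2 of the immediate-early genes and 0 of the other receptor kinases, against 3.02% of all genes.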

How the data were processed

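Whole colon tumors of 7 mice were profiled by RNA-seq with a directional poly(A) kit. After trimming (Trimmomatic), the authors used STAR 2.7.3a for alignment to mouse build 38 and RSEM v1.2.31 for quantification. The deposited values are the resulting estimated counts, rounded to whole numbers and not normalized. Symbols, positions and exon lengths came from GENCODE M21 (GRCm38) by Ensembl identifier, with 42462 of 43346 matched. Unmatched genes took 0.104% of all counts. The 7 members, the gene lists and the tests were chosen with earlier results of these data known. Genes were named by rule: all members, the 5 genes most correlated with each receptor (predicted genes excluded), at most 3 non-overlapping genes of each pathway list with the lowest P plus Kit, Nrp1, Plat and Plau, and at most 2 abundant genes of a marker list. A gene that this rule names is not reported here. Sequences are from RefSeq.

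Groups were compared over the whole table with the quasi-likelihood test of edgeR 4.0.16 (R 4.3.3) on the 15810 genes kept by filterByExpr, with TMM factors and no covariate, and P values were adjusted by Benjamini-Hochberg. The experiments were compared with the graft as a covariate. Log2 CPM used a prior count of 2. Replicates are separate animals. DESeq2 1.42.0, other scalings, filters and covariates, a replicate block, each tumor left out in turn, other gene lengths and a prior count of 0.5 were alternatives. The fits were tested on simulated data. No 2 tumors were duplicates.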

Additional observations from a re-analysis of the deposited data

Results flagged for a closer look

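Within the 4 Dnmt3a(+/-) BM tumors, 20 values (members, marker lists and ratios) were examined for a tumor whose gap to its nearest neighbour was too large a part of the group's range by Dixon's test at 95%. Chance flags about 1 in 20, and 3 were found. Dnmt3a(+/-) BM replicate 2 stood apart in Pdgfrb, at 23.7 CPM. The same tumor stood apart in the mean log2 CPM of the fibroblast markers, at 5.42. Dnmt3a(+/-) BM replicate 1 stood apart on the low side in Pdgfd, at 2.84 CPM, a value inside the control range.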

How the results depend on the processing

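Under edgeR, 0 members were called between the grafts by every alternative run, while DESeq2 called 1, or 2 with the experiment as a covariate (added after seeing the data), and 1 to 3 when 1 tumor was left out. It called 300 genes in all, and 58 to 697 with 1 tumor left out, where edgeR called 0. Pdgfrl was among the calls in each of these DESeq2 fits, and its log2 fold change was 1.75 to 2.16 over 22 alternatives. Between the grafts, Pdgfd reversed in BMT18 alone (-0.23) and without Dnmt3a(+/+) BM replicate 3 (-0.020, DESeq2 -0.0084; range over tumors left out in turn -0.020 to 0.96), as did Pdgfa there (0.19, DESeq2 0.21; range -0.67 to 0.19). Between the experiments, Pdgfrl reversed on library size alone (-0.020) and without Dnmt3a(+/-) BM replicate 1 (range -0.16 to 0.57), Pdgfb without replicate 2 (0.92) or 3 (0.31; range -0.59 to 0.92), Pdgfrb without replicate 2 (range -1.94 to 0.28) and Pdgfd without Dnmt3a(+/+) BM replicate 3 (range -1.13 to 0.40). There edgeR called 0 to 72 genes with 1 tumor left out, 14 without the low-count filter and 1 with all tumors, against 508 by DESeq2. In the level order, Pdgfd against Pdgfc reversed with the longest transcript (-0.13), Pdgfc against Pdgfra with the mean coding length (-0.88) and Pdgfra against Pdgfrb without Dnmt3a(+/-) BM replicate 1 (-0.03) or 3 (range -0.10 to 0.23). With 1 tumor left out, 0 pairs passed, since 6 tumors allow no adjusted P under 0.0625 for 4 pairs. Over tumors left out in turn, r ranged from 0.50 to 0.95 for Pdgfra with Pdgfrb, 0.73 to 0.89 for Pdgfra with Pdgfrl and 0.31 to 0.70 for Pdgfrb with Pdgfrl. The causes were not tested.

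Tumors of the same replicate number share the number and, for numbers 1 to 3, the experiment. Their correlations of deviations were 0.57, 0.07 and -0.04 for numbers 1 to 3. With the replicate block, edgeR again called 0 members, Pdgfrl had a log2 fold change of 1.83 (adjusted P = 0.41), and the difference of the ratio of Pdgfrl was 0.81 to Pdgfrb and -0.15 to Pdgfra. A replicate block was not run between the experiments, since numbers and experiments coincide in part. With 3 and 4 tumors the spread between tumors limits the precision more than the depth does.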
